A study of Homo sapiens with 6 samples.

Results

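Receptor tyrosine kinases, their ligands and the feedback genes of the ERK cascade were followed in SUM159 cells with stable overexpression of miR-1287-5p. The group holds 60 genes chosen by name, namely 28 receptors, 19 ligands, and 13 feedback genes of the DUSP, SPRY/SPRED and ETV families. Of these, 50 had a transcript cluster with their symbol among the 14884 genes named on the array here, and each gene was represented by its transcript cluster with the highest mean over the 6 arrays. ERBB2, TGFA, AREG, PDGFRA, PDGFRB, NTRK2, NTRK3, SPRY1, SPRED1 and SPRED2 had none and were not analysed here. Both groups were made from SUM159, an established line of triple negative BC, by lentiviral transduction followed by puromycin selection. The overexpressing cells carried a GFP vector for the mature -5p form and the control cells a GFP control vector. The methods do not describe the picking of a single clone. Each group had 3 biological replicates with 1 Affymetrix Human Gene 2.0 ST array each. Both groups were kept in the same medium, which contained insulin (5 µg/ml), hydrocortisone (1 µg/ml) and serum (5%). MIR1287 itself has no transcript cluster with a symbol here, so the overexpression could not be checked on these arrays.

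Receptor tyrosine kinases are membrane receptors that dimerize when a growth factor binds, phosphorylate each other and recruit adaptors that switch on RAS, and through it the kinases RAF, MEK and ERK. The same receptors also activate PI3K. Active ERK induces genes that dampen the cascade, among them dual specificity phosphatases (DUSP), which remove phosphate from MAP kinases, and Sprouty proteins (SPRY), which act between receptor and RAS, and it raises ETS transcription factors of the PEA3 group (ETV1, ETV4 and ETV5). Expression of these genes is therefore commonly read as a record of ERK output.

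The overexpressed microRNA is shown here with its hairpin partner and with the other microRNA that has most of its seed, because the seed (bases 2 to 8, in capitals) is the part by which a microRNA recognizes its mRNAs. The sequences are those of RefSeq (GRCh38.p14), where miR-1287-5p lies at chr10:98395271-98395292 on the minus strand.
hsa-miR-1287-5p: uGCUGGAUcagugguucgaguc
hsa-miR-1287-3p: cUCUAGCCacagaugcagugau
hsa-miR-3135b: gGCUGGAGcgagugcaguggug
Of 2545 mature human entries, miR-1287-5p was the only name with this seed, and miR-3135b was the only other one that shared its bases 2 to 7. The arrays measured mRNA levels, and the members were not divided by seed matches.

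The deposited values are log2 signals after RMA, and any 2 of the 6 arrays had a Pearson's r of 0.97 to 0.99 over the transcript clusters, which share the 2 arrays and are no replicates. On the leading principal component, taken over the 26808 brighter transcript clusters, control replicate 1 (−41.5) and control replicate 2 (60.6) lay farther apart than any other pair of arrays, and the miR-1287-5p overexpressing arrays lay between them. A transcript cluster was counted as on when it lay above the median of all transcript clusters (4.33 to 4.39) in all 3 control arrays, a low bar that 45.5% of transcript clusters and 65.3% of named genes passed. A stricter level was the 75th percentile (6.17 to 6.31), which 22.2% of transcript clusters and 36.5% of named genes passed in all 3. The reference gene GAPDH had a log2 fold change of 0.020. Signals of different genes were not ranked against each other, since probes differ in affinity. Of the markers of the line, the mesenchymal genes VIM and CD44 and the keratin KRT18 were above the stricter level, and ZEB1 and KRT14 were on. EPCAM, KRT5 and the hormone receptors ESR1 and PGR were off. The lower bar was passed by KRT5 in control replicate 1 alone, by EPCAM in control replicate 2 alone and by ESR1 in control replicate 3 alone. EPCAM in overexpressing replicates 1 and 3 (4.86 and 4.72) and ESR1 in overexpressing replicate 3 (4.87) also exceeded the median of all transcript clusters. CD14, PECAM1 and ALB, the 3 measured markers of leukocytes, endothelium and liver, lay between 2.96 and 3.78 in control arrays and between 2.88 and 3.83 in overexpressing arrays, below that median throughout. In a culture measured in bulk, fewer cells that express a gene and less RNA per cell cannot be told apart. Groups were compared with limma for all 53617 transcript clusters, with two-sided p-values adjusted after Benjamini and Hochberg. With 3 arrays in each group, the smallest two-sided p of an exact permutation test is 0.1.

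In control cells 36 of the 50 genes were on and 25 lay above the stricter level, and none of the feedback genes was off. No receptor, ligand or feedback gene passed the adjusted threshold of 0.05 (0 of 50, limma-adjusted p of 0.865 to 0.994), where 0.00373% of all transcript clusters and 0.00672% of named genes did. At an unadjusted p under 0.05, limma gave 5 of the 50 genes (background 5.4% of transcript clusters and 4.97% of named genes), FGFR2, DUSP4 and SPRY2 with a higher and PDGFC and HGF with a lower signal in overexpressing cells. These are 3 higher genes, where 2.96% of transcript clusters and 2.57% of named genes were higher, and 2 lower genes, where 2.44% and 2.4% were lower. The methods' t-test gave 3 higher genes at that p, with ERBB3 in place of FGFR2, 0 lower genes, and likewise 0 after adjustment. The 3 higher genes became 5 without control replicate 1, and 1 without control replicate 2, control replicate 3 or overexpressing replicate 3. The 2 lower genes became 3 without control replicate 1, 1 without control replicate 2 or overexpressing replicate 1, and 0 without control replicate 3, overexpressing replicate 2 or overexpressing replicate 3. The share of all transcript clusters at that p moved as well, to 12.85% without control replicate 1 and to between 3.65% and 5.67% without any other array. The 3 arrays of one group lay entirely above or below those of the other in 7 of 50 genes, where 11.2% of transcript clusters and 12.1% of named genes did. Of these 7, ERBB3, FGFR2, KDR, DUSP4, SPRY2 and SPRY4 were higher (background 6.88% and 6.92%) and PDGFC was lower (background 4.33% and 5.17%). Log2 fold changes over the 50 genes ran from −0.50 to 0.48 with a median of 0.049, against 0.011 for all named genes. By class, the median was 0.068 for the 23 measured receptors, −0.042 for the 17 ligands and 0.048 for the 10 feedback genes.

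**Figure D1:**
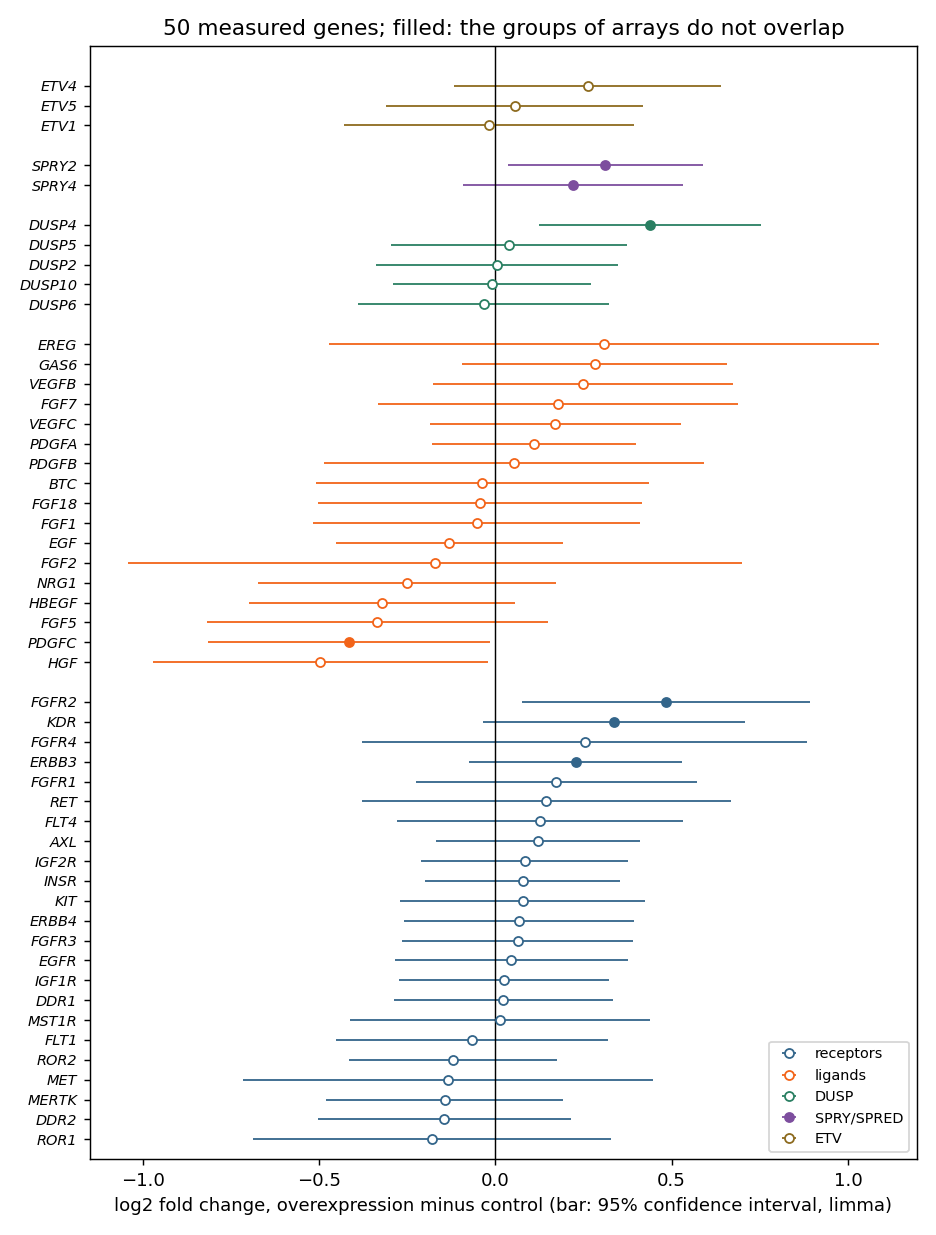
Log2 fold change (overexpression minus control) of the 50 measured genes by class, with the 95% confidence interval of limma as a bar; filled points mark the 7 genes whose groups of arrays do not overlap. The points lie between −0.50 and 0.48, and only the intervals of FGFR2, DUSP4, SPRY2, PDGFC and HGF leave out 0.

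Among the receptors, 14 of 23 were on in control cells, and 8 of them, AXL, EGFR, MET, IGF2R, ROR1, IGF1R, DDR1 and INSR, were above the stricter level in all 3 control arrays. EGFR, the receptor of EGF and its relatives and a common feature of basal-like BC, gave signals of 9.74, 10.01 and 9.85 in control replicates 1 to 3 and of 10.06, 9.89 and 9.79 in the overexpressing replicates. The groups overlapped, with a log2 fold change of 0.046 (95% confidence interval −0.29 to 0.38). AXL, a receptor of the TAM family bound by GAS6, had control signals of 11.40, 11.19 and 11.27, and 11.37, 11.43 and 11.41 in overexpressing cells (log2 fold change 0.12, interval −0.17 to 0.41). Its overexpressing arrays spanned a narrower range than its control arrays and overlapped with control replicate 1. MET, the receptor of hepatocyte growth factor, had 9.09, 10.02 and 9.65 in control cells and 9.67, 9.44 and 9.24 in overexpressing cells. Its control arrays 1 and 2 enclosed all 3 overexpressing arrays (log2 fold change −0.13, interval −0.72 to 0.45).

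The 3 receptors of insulin and its relatives were on, with small differences. INSR, the insulin receptor, had 7.03, 6.98 and 7.05 in control cells and 7.10, 7.14 and 7.05 in overexpressing cells, a log2 fold change of 0.078 (interval −0.20 to 0.35). For IGF1R, which binds the insulin-like growth factors and at high dose insulin, the signals were 7.66, 7.59 and 7.75 against 7.80, 7.59 and 7.69 (0.025, interval −0.27 to 0.32). IGF2R, a scavenger of IGF2 without kinase activity, had a log2 fold change of 0.083, and its groups overlapped as well. No upper bound of these 3 intervals exceeded 0.38 on the log2 scale.

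FGFR1, a receptor for FGF2, had 6.42, 6.15 and 6.26 in control cells and 6.48, 6.18 and 6.70 in overexpressing cells (log2 fold change 0.17), so both ranges overlapped near the stricter level. FGFR3, with control signals between 5.24 and 5.32, was on, whereas FGFR2 and FGFR4 were off. FGFR3 and FGFR4 had log2 fold changes of 0.063 and 0.25 with overlapping groups. FGFR2, the epithelial FGF receptor, had 4.06, 3.93 and 4.08 in control cells and 4.17, 4.73 and 4.62 in overexpressing cells. Every overexpressing array lay above every control array, and overexpressing replicates 2 and 3 also exceeded the median of all transcript clusters. The log2 fold change was 0.48 (standard error, SE, 0.17), or 1.4-fold, with a limma-adjusted p = 0.871. The control signal counted as off, and CD14, a gene of monocytes that was likewise off, had a log2 fold change of 0.46.

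KDR, the main VEGF receptor of endothelium, was on by the lower bar only, at 5.38, 5.31 and 5.06 in control cells against 5.79, 5.40 and 5.58 in overexpressing cells. The lowest overexpressing array exceeded the highest control array by 0.014, with a log2 fold change of 0.34 (SE 0.16, limma-adjusted p = 0.871). FLT1 and FLT4, the other VEGF receptors, were off, with log2 fold changes of −0.067 and 0.13. FLT4 missed the lower bar in control replicate 1 only (3.996, against 4.55 and 4.38 in control replicates 2 and 3). ERBB3, the neuregulin receptor with an impaired kinase, was off at 4.03, 3.89 and 4.05 in control cells against 4.19, 4.13 and 4.34 in overexpressing cells (log2 fold change 0.23). Its groups did not overlap, although every value lay below the median of all transcript clusters of its own array. ERBB4, KIT, RET and MERTK were also off in control cells, with log2 fold changes between −0.14 and 0.15.

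The collagen receptor DDR1 was above the stricter level (log2 fold change 0.023), and its other transcript clusters had −0.070 to 0.023. DDR2, the fibrillar collagen receptor of mesenchymal cells, lay just above the lower bar in control cells at 4.52, 4.46 and 4.64, and had 4.55, 4.49 and 4.14 in overexpressing cells. Its log2 fold change was −0.14. Overexpressing replicate 3 was the lowest array and lay below the median of its own array, and the other overexpressing arrays lay inside the control range. ROR1 and ROR2, receptors of WNT5A, had log2 fold changes of −0.18 and −0.12, and MST1R, the receptor of macrophage stimulating protein, had 0.014. A further transcript cluster of MST1R had −0.090, with a control mean of 4.09 that lay below the lower bar.

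**Figure D2:**
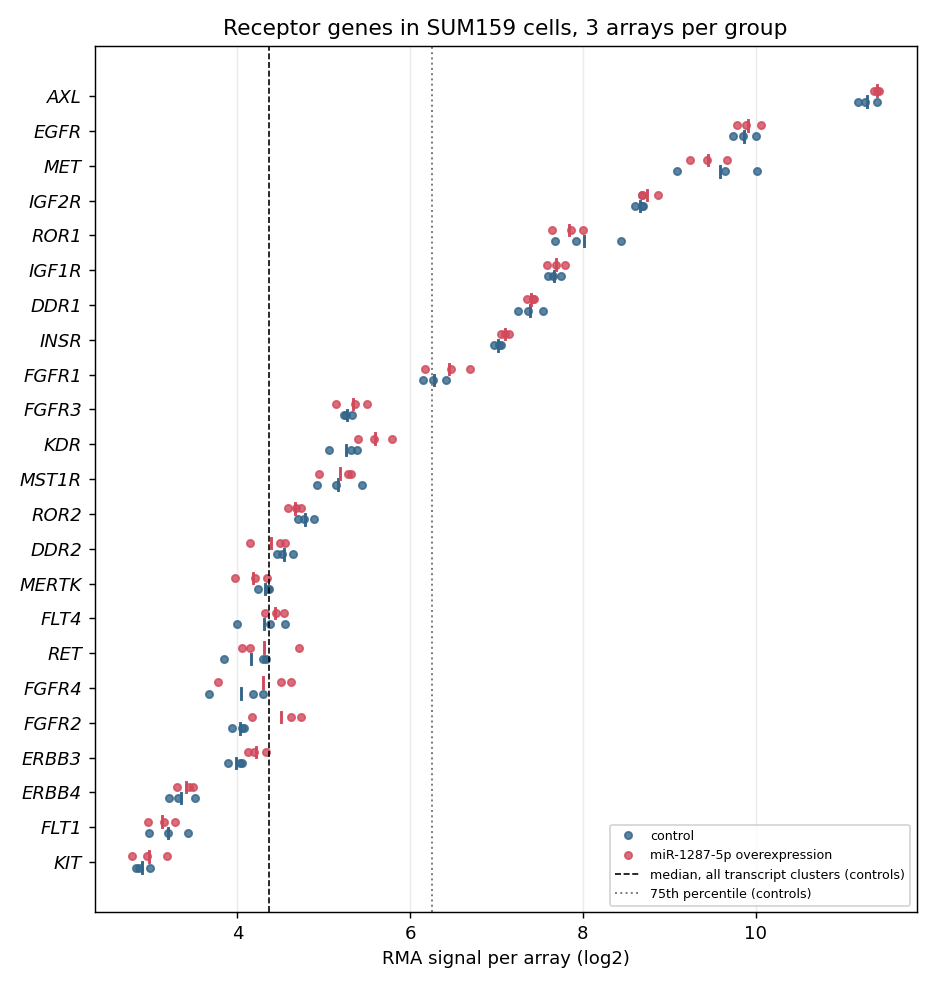
RMA log2 signal of the 23 measured receptor genes in each array (points) with group means (ticks), ordered by the control mean; the dashed and dotted lines are the median and the 75th percentile of all transcript clusters, averaged over the control arrays. AXL, EGFR and MET lie far to the right of both lines in every array, FGFR2, ERBB3 and KDR have separated groups, and the horizontal position should not be compared between genes.

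Of the 17 measured ligands 12 were on in control cells, and EREG, HBEGF, NRG1, FGF2, PDGFA, GAS6, VEGFB and VEGFC were above the stricter level. EGF, BTC, FGF1, FGF7 and HGF were off. Read beside the receptors, EGFR was on together with its ligands EREG and HBEGF, AXL with GAS6, and FGFR1 with FGF2, whereas HGF, the ligand of MET, was off. The receptors of PDGFA and PDGFC were not analysed here.

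EREG, the EGFR ligand epiregulin, had control signals of 8.93, 10.22 and 9.91 and overexpressing signals of 10.32, 9.79 and 9.88. Control replicate 1 stood apart from the other 5 arrays, and the log2 fold change of 0.31 (interval −0.47 to 1.09) had an SE larger than itself. HBEGF, heparin-binding EGF, had 7.31, 6.86 and 7.22 in control cells and 6.92, 6.83 and 6.68 in overexpressing cells. Only control replicate 2 fell within the range of the overexpressing arrays (log2 fold change −0.32, SE 0.16, limma-adjusted p = 0.871). NRG1, the neuregulin that binds ERBB3 and ERBB4, had 6.38, 6.997 and 6.79 against 6.58, 6.41 and 6.43 (log2 fold change −0.25). Here control replicate 1 was the lowest of all 6 arrays.

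PDGFC, a PDGF that is activated by proteolysis, had 5.91, 6.42 and 6.37 in control cells and 5.90, 5.83 and 5.72 in overexpressing cells. All overexpressing arrays were below all control arrays, but control replicate 1 exceeded the highest overexpressing array by only 0.0076. The log2 fold change was −0.41 (SE 0.17), or 1.33-fold lower, with a limma-adjusted p = 0.871. HGF, the ligand of MET, had 3.31, 3.84 and 3.75 against 3.34, 3.25 and 2.83 (log2 fold change −0.50, SE 0.20, limma-adjusted p = 0.871). All of its values lay below the median of all transcript clusters, and control replicate 1 overlapped with overexpressing replicate 1. PDGFA, another PDGF, had a log2 fold change of 0.11 with overlapping groups.

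FGF2, a basic FGF that signals through FGFR1, varied most among the control arrays of all 50 genes, with 7.59, 9.13 and 8.51, while overexpressing arrays had 8.52, 8.26 and 7.94. The control range of 1.54 enclosed all overexpressing arrays, and the interval of the log2 fold change ran from −1.04 to 0.70. FGF5, an FGF known for its part in the hair cycle, had 5.199, 5.85 and 5.39 in control cells and 4.98, 5.40 and 5.05 in overexpressing cells (log2 fold change −0.33, interval −0.82 to 0.15). As in FGF2 and PDGFC, control replicate 1 was the lowest control array and control replicate 2 the highest.

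GAS6, the ligand of AXL, had 8.39, 7.92 and 8.14 in control cells and 8.30, 8.45 and 8.55 in overexpressing cells. Control replicate 1 overlapped with overexpressing replicate 1, and the log2 fold change was 0.28 (interval −0.094 to 0.66). VEGFC, the lymphatic growth factor, had 7.32, 7.65 and 7.34 against 7.64, 7.72 and 7.45 (log2 fold change 0.17), and VEGFB had 0.25. Both ligands had overlapping groups. The remaining ligands, EGF, BTC, FGF1, FGF7, FGF18 and PDGFB, had log2 fold changes between −0.13 and 0.18.

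**Figure D3:**
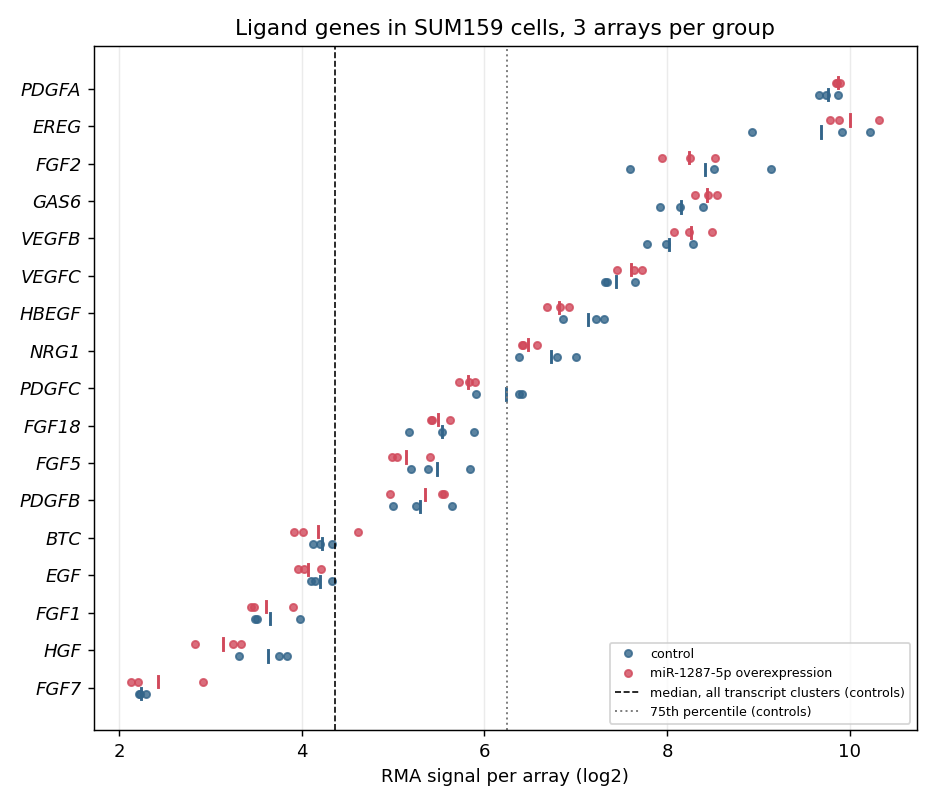
RMA log2 signal of the 17 measured ligand genes in each array (points) with group means (ticks), ordered by the control mean, with the same 2 reference lines. PDGFC has separated groups, and in FGF2 and EREG the control arrays spread over 1.54 and 1.29, more than the group means differ.

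The 10 measured feedback genes were all on, and 9 were above the stricter level in the 3 control arrays. DUSP4, a nuclear phosphatase of ERK, had 5.76, 5.46 and 5.62 in control cells and 5.97, 6.11 and 6.08 in overexpressing cells. Every overexpressing array was above every control array, with a gap of 0.21 between the groups. The log2 fold change was 0.44 (SE 0.13, interval 0.12 to 0.75), or 1.35-fold, with a limma-adjusted p = 0.865, the smallest among the 50 genes. DUSP6, the cytoplasmic ERK phosphatase that is often used as a readout of the cascade, had 6.65, 6.37 and 6.40 against 6.598, 6.46 and 6.26 (log2 fold change −0.033, interval −0.39 to 0.32). Its groups overlapped.

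The other phosphatases had log2 fold changes near 0. DUSP5, a nuclear ERK phosphatase, had 8.52, 8.17 and 8.49 in control cells and 8.46, 8.38 and 8.45 in overexpressing cells (log2 fold change 0.040, and 0.23 in a further transcript cluster). DUSP10, which acts on p38 and JNK rather than on ERK, had 7.73, 7.79 and 7.69 against 7.80, 7.70 and 7.68 (−0.0095). In both genes the arrays of the groups were intermingled, as they were in DUSP2 (0.0056).

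Of the Sprouty genes, SPRY2 and SPRY4 had separated groups, where 12.1% of named genes did. SPRY3, from the list of other MAPK output genes, had overlapping groups and a log2 fold change of −0.11. SPRY2 had 8.21, 8.10 and 8.10 in control cells and 8.44, 8.46 and 8.44 in overexpressing cells. The groups were 0.23 apart, and the overexpressing arrays had an SD of 0.011, against 0.066 in the controls. The log2 fold change was 0.31 (SE 0.12, interval 0.035 to 0.59), or 1.24-fold, with a limma-adjusted p = 0.871. SPRY4 had 9.48, 9.18 and 9.33 against 9.51, 9.54 and 9.599, so that the groups were separated by 0.027 only (log2 fold change 0.22, SE 0.13, limma-adjusted p = 0.871).

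Of the PEA3 factors, ETV4 had 8.68, 8.19 and 8.41 in control cells and 8.58, 8.72 and 8.77 in overexpressing cells (log2 fold change 0.26, interval −0.12 to 0.64). Control replicate 1 lay above the lowest overexpressing array. ETV5 had 6.92, 6.58 and 6.56 against 6.83, 6.82 and 6.58 (0.055), and ETV1 had 6.41, 6.93 and 6.66 against 6.85, 6.57 and 6.53 (−0.018). In these 2 genes the groups overlapped. The log2 fold change was above 0 in 7 of the 10 feedback genes (70.0%) and in 52.0% of all named genes. The median of the 10 genes was 0.048 with all arrays, and 0.018 to 0.097 with any array but control replicate 1 left out. Without control replicate 1 it was 0.15. That control array had the highest value in DUSP2, DUSP4, DUSP5, DUSP6, SPRY2, SPRY4, ETV4 and ETV5, so leaving it out lowers their control means.

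**Figure D4:**
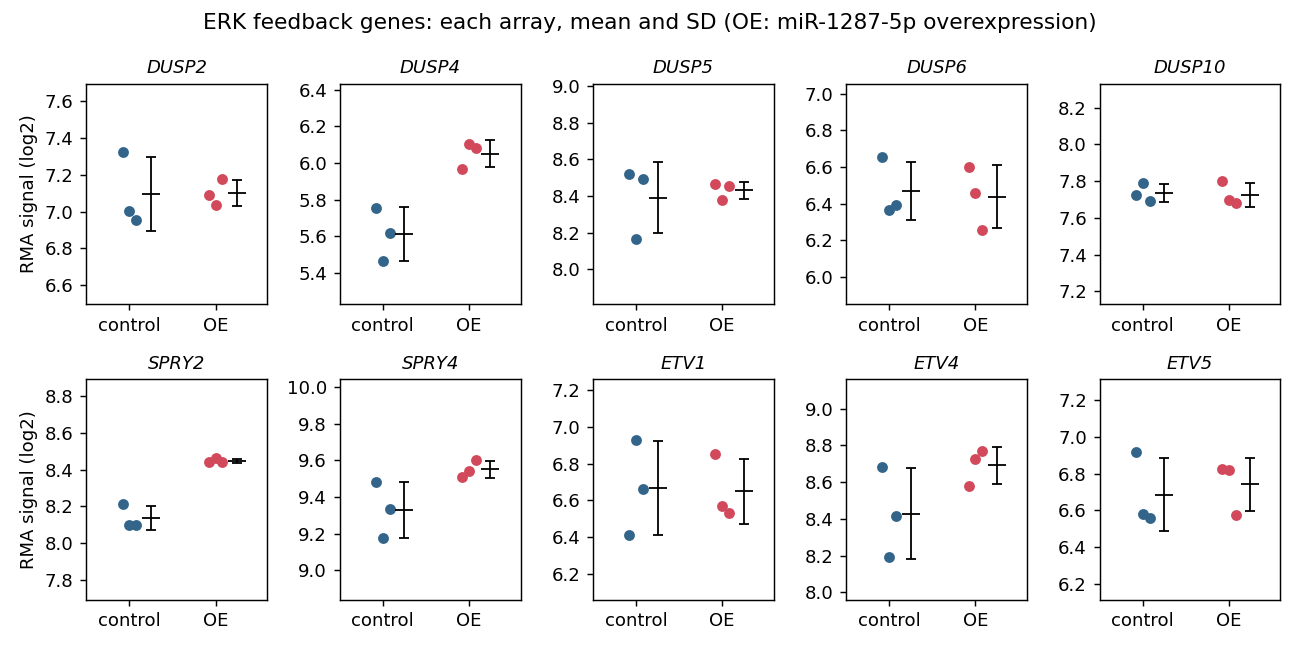
RMA log2 signal of the 10 measured feedback genes, each array as a point with the mean and SD beside it (3 arrays per group; each panel spans the same log2 range around its own level). DUSP4, SPRY2 and SPRY4 have separated groups, and DUSP6, DUSP10, ETV1 and ETV5 do not.

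Further genes of the same pathway were counted from lists of other receptors, other ligands, the RAS to ERK core, regulators of receptor turnover and shedding, and other MAPK output genes, and none of them passed the adjusted threshold. Among 13 measured MAPK output genes, 1 was higher and 0 were lower at an unadjusted p under 0.05 from limma, where 2.57% and 2.4% of named genes were. EGR1, an immediate early transcription factor downstream of ERK, had 8.54, 8.10 and 8.04 in control cells and 8.63, 8.94 and 9.03 in overexpressing cells, a log2 fold change of 0.64 (SE 0.19, limma-adjusted p = 0.865). Its groups did not overlap. EPHA2, a receptor that is also an ERK target, had a log2 fold change of 0.28 without overlap, FOSL1 had 0.23, and DUSP16, a phosphatase of JNK and p38, −0.24. The genes named here are those with the smallest p of the list. Of all 13, 3 were higher and 1 was lower without overlap, where 6.92% and 5.17% of named genes were. The median log2 fold change of the list was 0.050, against 0.011 for all named genes.

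Among 31 other ligands, 0 were higher and 1 was lower at that p, where 2.57% and 2.4% of named genes were. This gene was EPGN, the EGFR ligand epigen, with 5.23, 6.68 and 5.88 in control cells and 5.18, 4.23 and 4.54 in overexpressing cells. The highest overexpressing array lay just below the lowest control array, and control replicates 2 and 1 differed by 1.45. The log2 fold change of −1.28 (SE 0.39, limma-adjusted p = 0.865) is farther from 0 than that of any listed receptor, ligand or feedback gene. Of the other ligands with the smallest p, VEGFA had −0.25, BDNF 0.41 and FGF11 0.28.

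ADAM17, the protease that releases HBEGF, EREG and other EGFR ligands from the membrane, was the only 1 of 8 measured turnover and shedding genes with an unadjusted p under 0.05, where 4.97% of named genes had one. Of the 8 genes, 7 had log2 fold changes below 0, where 7147 of the 14884 named genes did, and the median was −0.20. ADAM17 had 7.65, 8.12 and 7.98 in control cells and 7.65, 7.45 and 7.16 in overexpressing cells (log2 fold change −0.50, SE 0.19, limma-adjusted p = 0.871). Overexpressing replicate 1 and control replicate 1 were almost equal. STAM, SH3KBP1 and ADAM10 had −0.23, −0.16 and −0.41, and ADAM10 differed by 1.92 between control replicates 2 and 1. In the RAS to ERK core, GAB1, a docking protein that links receptors to PI3K and ERK, was the 1 of 12 measured genes lower at that p (5.30, 5.85 and 5.46 against 5.12, 5.16 and 4.82), and 0 were higher. Of named genes, 2.4% were lower and 2.57% were higher. KSR1, a scaffold of RAF and MEK, had 0.29 (SE 0.15), SOS2 −0.64 (SE 0.435) and SOS1 −0.52 (SE 0.39). SOS2 and SOS1 had overlapping groups and differed by 1.87 and 1.465 between control replicates 2 and 1. Of 20 other receptors none had an unadjusted p under 0.05, and EPHA2, RYK, EPHB6 and EPHB4 had 0.28, −0.36, 0.27 and 0.23.

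In 42 of the 50 genes the 3 control arrays spanned more than the 2 group means differed. A range of 3 single arrays mostly exceeds a difference of 2 means even without any change, so this count does not set these genes apart. The median control range was 0.33, against 0.37 for all named genes, and the median absolute log2 fold change was 0.13. In 10 genes control replicate 2 exceeded control replicate 1 by more than 0.5 on the log2 scale, namely MET, ROR1, FLT4, NRG1, FGF2, FGF5, EREG, PDGFC, HGF and ETV1, and 8 of them had negative log2 fold changes (all but FLT4 and EREG). Control replicate 2 was below control replicate 1 in 33 genes, DUSP4, SPRY2, SPRY4 and ETV4 among them, and 25 of these had positive log2 fold changes. The part of this spread in the group differences was not tested.

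**Figure D5:**
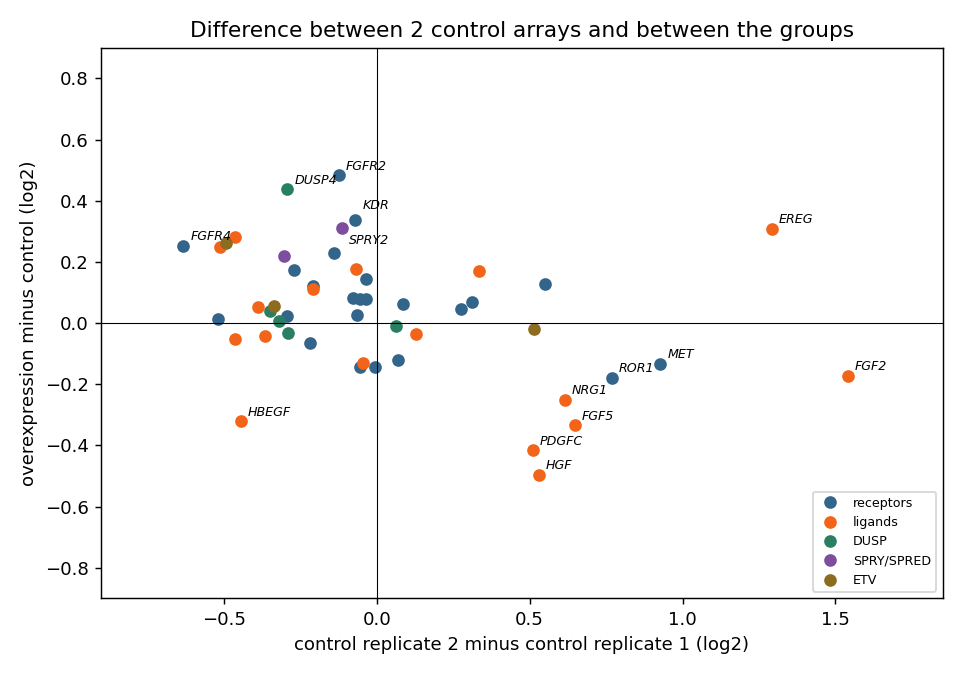
Difference between control replicates 2 and 1 (horizontal axis, log2) and between the groups (vertical axis, log2) for the 50 measured genes, coloured by class; genes beyond 0.6 or 0.3 are named. FGF2, EREG and MET differ by 0.93 to 1.54 between the 2 control arrays. DUSP4, SPRY2 and FGFR2 differ by at most 0.29 between them, with group differences of 0.31 to 0.48. The latter are the higher genes at an unadjusted p under 0.05 from limma, a choice that itself favours a small control spread. Their limma-adjusted p was 0.865 to 0.871.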

How the data were processed

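Total RNA of 3 miR-1287-5p overexpressing and 3 control SUM159 samples was measured on 6 Affymetrix Human Gene 2.0 ST arrays. The deposited values are log2 signals that the authors obtained with RMA (Partek Genomics Suite 6.6), quantile normalized over the 6 arrays. The methods mention filtering without its criteria. Which build the array annotation used is not given in the sources used here. Precision is limited by the number of arrays.

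Symbols came from GEO's platform annotation (16098 of 53617 transcript clusters). Tests used limma 3.58.1 (R 4.3.3) and had been tested on simulated data. There, limma called 1 of 50 planted log2 changes of 0.585 and 15 of 50 of 1.0 at an adjusted p under 0.05. Changes as small as those of the genes followed here would thus mostly be missed at that threshold. The median of each control array was the level for on, because only 1 olfactory receptor, the planned background, had a symbol. Array values are given for genes at an unadjusted p under 0.05, for genes with separated groups and for a list of central genes. Up to 4 genes with the smallest p are named from each other pathway list, and SPRY3 is named beside the other Sprouty genes. Members and lists were chosen with earlier results of these data known. Alternatives covered variance moderation, the test (the methods' t-test), a replicate block, scaling (centred medians or cyclic loess), filters, the transcript cluster per symbol, the level for on and leaving out arrays.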

Additional observations from a re-analysis of the deposited data

How the results depend on the processing

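In the 13 alternatives fitted across transcript clusters, 0 of the 50 genes passed at an adjusted p under 0.05. Adjusted p-values were not computed for the mean over the transcript clusters of a symbol. At an unadjusted p under 0.05, the 2 lower genes became 0 with the methods' t-test, 0 with the replicate block, and 1 after cyclic loess or with dim transcript clusters left out. The block left 2 higher genes. Same-numbered arrays did not deviate together (r = −0.47, −0.0018 and −0.081), so the numbers were not taken as pairs. With 1 array left out in turn, 0 to 3 genes were lower and 1 to 5 higher, while 3.65% to 12.85% of all transcript clusters were at that p (the highest share without control replicate 1, as for the genes). The median log2 fold change of the 10 feedback genes ran from 0.018 to 0.15 (without control replicate 1). DUSP4, SPRY2, FGFR2, PDGFC, HGF, KDR, ERBB3 and SPRY4 kept their sign in every alternative that tested them. DUSP4 stayed at an unadjusted p under 0.05 in 13 of 13 (log2 fold change 0.36 to 0.51, adjusted p of 0.352 to 0.999 over the alternatives), SPRY2 in 7 of 13, FGFR2 in 7 of 12, PDGFC in 6 of 13 and HGF in 5 of 12. With the 75th percentile as the level, 25 instead of 36 genes were on. The 99th percentile of olfactory receptors was not run, for want of named transcript clusters. The cause of these shifts was not tested. FGFR2, ERBB3 and HGF lay below the median signal in control arrays, which limits what their fold changes can show.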
